A study of Zea mays with 16 samples.

Results

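A set of 131 microarray probes was examined whose signal was lower in anthers of ms23 mutant maize than in those of fertile siblings, while no such loss was seen in ms32 mutants. The set was drawn from 42034 probes, of which 30240 were detectable, that is, well above background in all 4 fertile sibling samples and free of outlier marks. They were selected on their measured ratios: a member had a log2 ratio of ms23 mutant over ms23 fertile sibling of -1 or lower on both arrays that held this pair, and a log2 ratio of ms32 mutant over ms32 fertile sibling above -0.5 on both arrays that held that pair. Some members were close to background in the ms32 siblings, which left little room for a fall in ms32 mutants to be seen. The 131 probes carried 130 target names, because TC313647 was represented by 2 of them.

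Male fertility in maize depends on the tapetum, the innermost wall layer of the anther, which surrounds the meiotic cells and supplies them with nutrients, enzymes and wall material. MS23 and MS32 are transcription factors of the basic helix-loop-helix family on which tapetal differentiation depends, and plants that lack either are male-sterile. In the order known for maize, MS23 acts before MS32, so transcripts that fall in one mutant and not in the other bear on how the outputs of the 2 factors differ.

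Whole anthers of 1.5 mm were taken from 4 groups of field-grown plants: ms23 mutants, fertile siblings of the ms23 family, ms32 mutants and fertile siblings of the ms32 family. The mutants gave 6 labelled samples each, which the titles number as 3 replicates in both dyes, and each kind of fertile sibling gave 2, a single replicate number in both dyes. Slide 1 held 4 arrays on which replicates 1 and 2 of the ms23 mutant were hybridised directly against those of the ms32 mutant. Slide 2 held 2 arrays of the third ms23 mutant replicate against its fertile sibling and 2 of the third ms32 mutant replicate against its own, and it was slide 2 alone that chose the members. The alleles, the inbred background and the number of plants per sample are not given in the sources used here, and the genotype of a fertile sibling at its ms locus is not stated either. In whole anthers, fewer cells of a type and less RNA per cell cannot be told apart.

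Across the 16 samples, 81.2% to 94.8% of the probes were well above background and the median processed signal lay between 166 and 245. The target names of the members were 100 assembled transcript sequences (names starting with TC), 28 accessions of expressed sequence tags and 3 assembled genomic islands (names starting with MAGI). None of them was paired with a gene symbol here, so no function is given for any member, and the ms23 and ms32 transcripts themselves and markers of tapetal or meiotic cells were not analysed here.

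**Figure D1:**
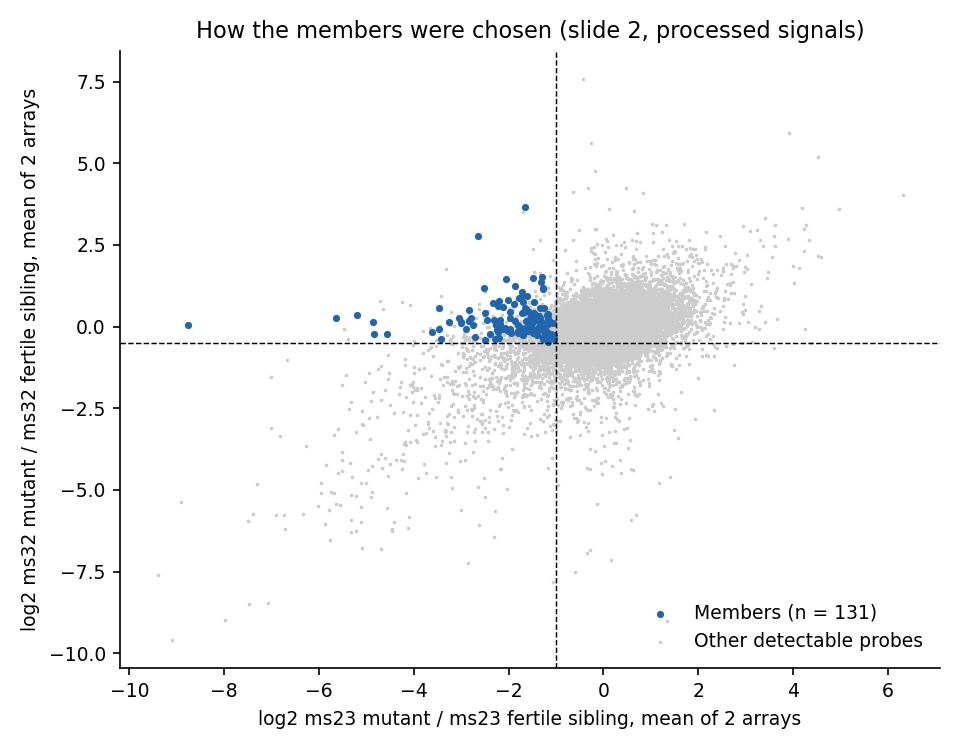
Mean log2 ratio on slide 2 of each detectable probe, ms23 mutant over ms23 fertile sibling (x axis) against ms32 mutant over ms32 fertile sibling (y axis), with the 131 members in blue and the bounds of -1 and -0.5 dashed. The members fill the upper left corner by construction, and most of the probes that fell far in ms23 mutants lie below them, at negative ms32 ratios.

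Under the bounds of the rule, the members were the smallest part of the probes that fell in ms23 mutants. The ms32 bound of -0.5 is less strict than the ms23 bound of -1. The share of all detectable probes at or below the ms32 bound is not given, so the split is a description. Of 944 detectable probes that were at or below -1 on both ms23 arrays, 426 were also at or below -0.5 on both ms32 arrays and 387 on 1 of them, which left the 131 members. Among the members the mean ms23 ratio had a median of -1.66 on the log2 scale and its middle 50% ran from -2.22 to -1.35. It was -2 or lower for 45 members and -3 or lower for 13. The mean ms32 ratio had a median of 0.14, stayed within 0.5 of 0 for 104 members and was above 0 on both arrays for 42. These values chose the members and are a description, without a test.

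The boundaries of the set were narrow. TC302329, just inside the ms23 bound, had ms23 ratios of -1.01 and -1.09, and TC294921, just outside it, had -1.45 and -0.99. TC296303 was just inside the ms32 bound, with ms32 ratios of -0.50 and -0.33, whereas TC306814 was just outside, with -0.22 and -0.50. The arrays of a pair differed by more than 1 on the log2 scale for 28 members in the ms23 family and for 27 in the ms32 family. Over all detectable probes the Pearson correlation of the 2 ms23 ratios was 0.434 and that of the 2 ms32 ratios was 0.131, a description across probes that share the same arrays and dyes. Read on background-corrected and loess-normalized ratios, the same rule held 66 probes, of which 44 were among the 131.

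The members were dim in ms23 mutants but seldom undetectable. On slide 2, 118 were well above background in both ms23 mutant samples, 10 in 1 of them and 3 in neither. For the 3 in neither, CF036691, TC293863 and TC291684, the size of the fall has only a lower limit, a difference of normalized channel levels that takes for the mutant, on each array, the higher of the lowest detectable signal and the probe's own. For these 3 the probe's own normalized value, which holds the offset, was the higher and set the limit. CF036691 was at least 17.3-fold lower in ms23 mutants than in fertile siblings, TC293863 at least 2.07-fold and TC291684 at least 1.22-fold. No member was saturated in any sample.

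The 4 arrays of slide 1, which played no part in the choice, measured the ms23 mutant directly against the ms32 mutant. Of the 131 members, 35 (26.7%) were lower and 4 (3.05%) higher in ms23 than in ms32 mutants, and 92 passed the threshold in neither direction (limma with a dye term for each probe, Benjamini-Hochberg adjusted p under 0.05 over 39353 probes; n = 4 arrays). In the same fit 8.37% of all probes tested were called lower and 6.92% higher, and among probes detectable in the fertile siblings the shares were 9.67% and 8.03%. The median direct log2 ratio was -0.23 over the members, with a middle 50% from -0.77 to 0.02, against 0.01 over the detectable probes. On processed signals, which carry no offset, the median over the members was -0.65. With median centring in place of loess, 41 members were lower and 2 higher, beside 13.4% of all probes lower. Of all calls, 72.7% were then falls, against 54.7% with loess. All 131 members were tested, but TC293863, CF036691 and TC286761 passed the filter on dim probes only through their signal in ms32 mutants, where they had to be the higher. Over the 128 members that passed through both mutants, 34 (26.6%) were lower, 4 (3.12%) higher and 90 not called, and the median direct ratio was -0.22.

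The excess of lower members was seen on each array. Between 86 and 102 members had a direct ratio below 0 on a given array. The median over the members ran from -0.36 to -0.13 by array, against -0.006 to 0.006 over the detectable probes. On all 4 arrays, 57 members (43.5%) were below 0, against 22.6% of detectable probes. Only 13 (9.92%) were above 0 on all 4, against 21.2%. Falls that were called and reached at least 1 on the log2 scale numbered 17 (13%, against 3.72% of detectable probes), and those of at least 2 numbered 8 (6.11%, against 1.04%). Because the arrays of slide 1 come in dye-swapped pairs with the same replicate number in their titles, whereas the series text speaks of 2 biological replicates, the p-values may measure in part the technical spread between arrays. With each pair averaged into 1 replicate, 24 members were lower and 4 higher, beside 5.87% of all probes lower. The count of lower members was 15, 21, 14 and 14 without array 1, 2, 3 or 4, and 26 or 12 without replicate 1 or 2, while the share of all probes called lower was then between 1.78% and 4.72%.

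**Figure D2:**
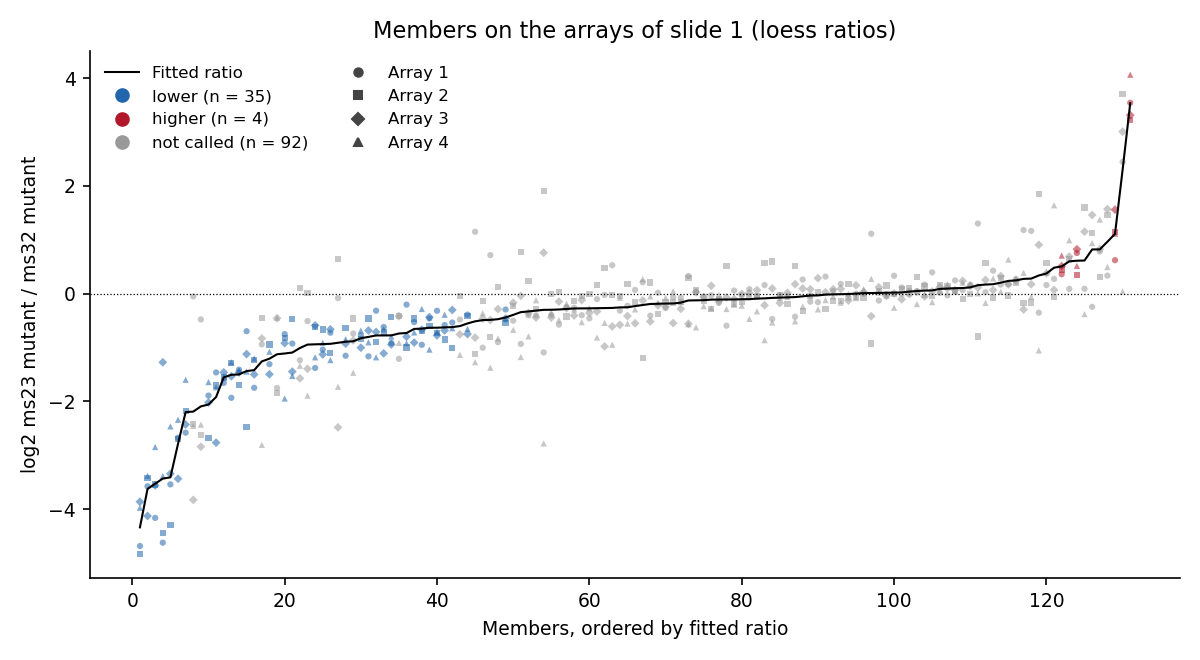
Direct log2 ratio of ms23 over ms32 mutants for the 131 members, ordered by the fitted ratio (black line), with a point for each of the 4 arrays of slide 1 after loess. The 35 members called lower are blue and lie at the left, the 4 called higher are red, and the 92 not called are grey. Of these 92, 75 have a fitted ratio within 0.5 of 0, but the largest absolute ratio among them is 2.30.

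**Figure D3:**
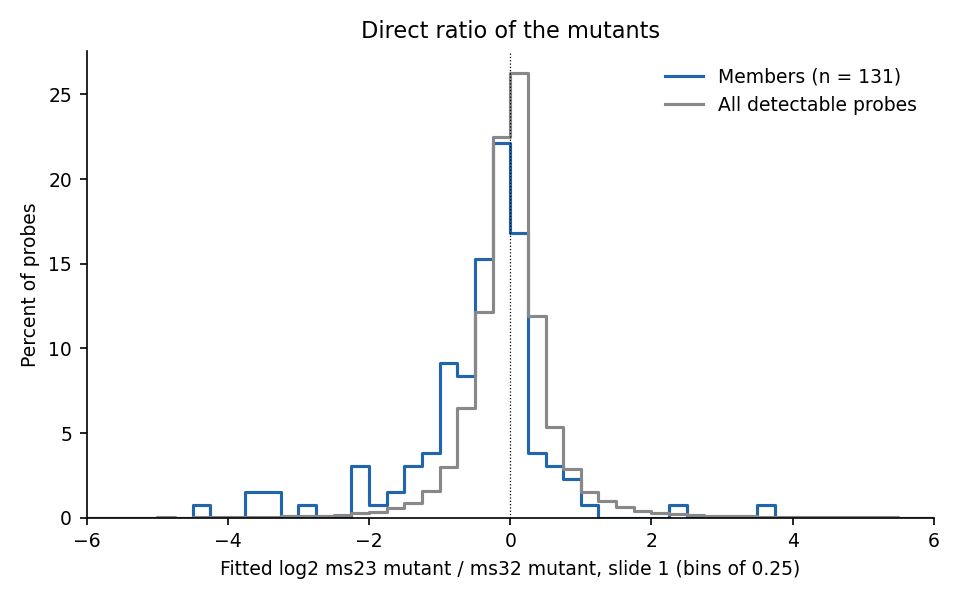
Percent of probes in bins of the fitted direct log2 ratio of ms23 over ms32 mutants, for the 131 members (blue) and all detectable probes (grey). The members have a tail to the left that reaches -4.34, and both distributions peak near 0.

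Detection in the slide 1 samples went the same way as the ratios. Of the members, 104 (79.4%) were well above background in all 4 ms23 mutant samples of slide 1 and 119 (90.8%) in all 4 ms32 mutant samples. The corresponding shares of detectable probes were 94.9% and 95.9%. Fewer ms23 than ms32 mutant samples were well above background for 21 members (16%, against 3.2% of detectable probes), and more for 3 (2.29%, against 2.11%). Set against the fertile siblings of slide 2 on channel levels normalized across all arrays, all 4 slide 1 samples of the ms23 mutant lay below both ms23 fertile siblings for 75 members (57.3%, against 10.2% of detectable probes). All 4 slide 1 samples of the ms32 mutant lay below both ms23 siblings for 59 members (45%, against 18.5%). On processed signals these counts were 69 (52.7%, against 6.19%) for the ms23 mutant and 52 (39.7%, against 12.3%) for the ms32 mutant. The sibling values entered the choice of members and come from another slide, so these counts are a description.

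The members were also described by where the ms32 family stood. Fertile siblings of the 2 families themselves differed for many of them: the ms23 siblings were at least 2-fold above the ms32 siblings for 62 members (47.3%, against 10.9% of detectable probes) and at least 2-fold below for 16 (12.2%, against 11.7%). The higher signal in ms23 siblings is in part fixed by the rule, which needed room for a fall there. For most of the 35 members called lower, the ms32 samples were near or above the ms23 siblings. Their median processed signal was 206 in ms23 mutants of slide 1, 513 in ms23 siblings, 1286 in ms32 mutants of slide 1 and 778 in ms32 siblings. Among these 35, the mean slide 2 level of the ms32 samples was closer to the ms23 siblings than to the ms23 mutants for 32 and above the ms23 siblings for 20. Because the rule put the ms23 mutants below their siblings, a call of lower goes in large part with such a place. The counts by this level, here and for the members not called, are thus a description, without a share of detectable probes beside them.

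The 92 members that were not called had another profile. Their median processed signal was 96.2 in ms23 mutants of slide 1 and 72.2 in those of slide 2, 293 in ms23 siblings, 125 and 106 in ms32 mutants of slides 1 and 2, and 88.2 in ms32 siblings. In these medians the ms23 siblings stood above the 3 other groups. The ms32 samples were closer to the ms23 mutants than to the ms23 siblings for 55 of the 92, and the ms23 siblings were at least 2-fold above the ms32 siblings for 51. For 75 of the 92 the direct ratio lay within 0.5 of 0 on the log2 scale. For 68 of the 92 the 95% confidence interval stayed between -1 and 1. It reached -1 or lower for 17 and 1 or higher for 9, both for 2 of these. A 2-fold difference is thus not excluded for 24. Nor do the intervals exclude it for dim members among the 68, because the offset draws ratios at low signal to 0. How many of the 68 are so dim was not counted. Over the 131 members, the slide 1 ratio and the difference of the 2 mutants on slide 2 had a Pearson correlation of 0.843 and a Spearman correlation of 0.744, across probes that share samples and arrays. The slide 2 levels entered the choice of members, and the correlation over all detectable probes is not given, so these values are a description. This grouping by the level in the ms32 family was made after the values were seen. In the direct ratio, a difference between the families and a difference between the mutations cannot be told apart.

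**Figure D4:**
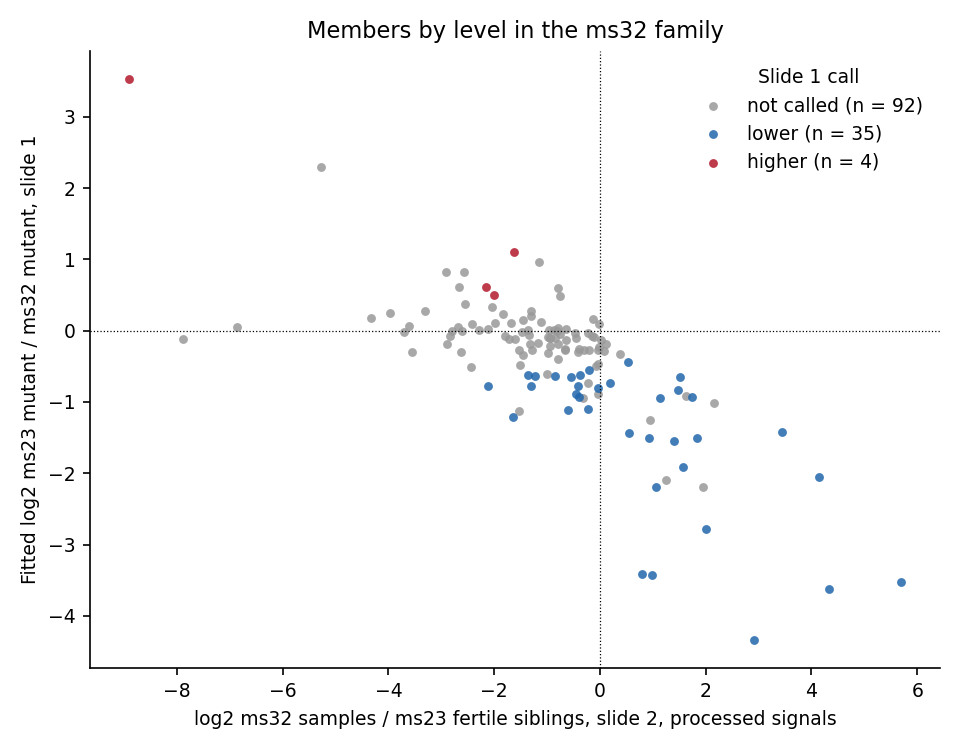
Mean log2 level of the 4 ms32 samples of slide 2 relative to the ms23 fertile siblings (x axis, processed signals) against the fitted direct log2 ratio of ms23 over ms32 mutants on slide 1 (y axis) for the 131 members. The 35 members called lower lie mostly near or right of 0 on the x axis, and the 4 called higher lie left of it.

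Several members were abundant in every sample of the ms32 family and low in ms23 mutants. TC293150 had a processed signal of 523, 503, 5702 and 1123 in the ms23 mutant samples of slide 1 and of 235 and 210 in those of slide 2, against 6287 and 6438 in ms23 siblings. Its 6 ms32 mutant samples ran from 10268 to 15417 with a median of 14344, and the ms32 siblings had 15331 and 11998. All 6 ms23 mutant samples were thus below both kinds of sibling, but the third array of slide 1 came close to the ms23 siblings. The direct log2 ratio was -3.43 (SE 0.624, limma adjusted p = 0.0408), and the call was lost with the dye-swapped pairs averaged (limma adjusted p = 0.0637), with scaling between arrays (0.0662), in the deposited table (0.138), without array 2 (0.131), without array 4 (0.134) and without replicate 1 (0.0821).

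TC302418 gave the steadiest direct ratio among these. Its signal was 377, 482, 550 and 768 in ms23 mutants on slide 1 and 323 and 426 on slide 2, and 1475 and 1039 in ms23 siblings. The ms32 mutant samples ran from 1717 to 4157 with a median of 2272, and the ms32 siblings had 4187 and 2629. On these processed signals the groups of ms23 mutants and ms23 siblings did not overlap, and every ms32 sample was above both. On channel levels normalized across all arrays, the slide 1 samples of the ms23 mutant were not all below both ms23 siblings. The direct ratios on the 4 arrays were -1.66, -1.55, -1.46 and -1.54, for a fitted log2 ratio of -1.55 (SE 0.0776, limma adjusted p = 0.00333).

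TC293863 was close to background in ms23 mutants. Its 6 ms23 mutant samples had signals from 5.97 to 22.1 with a median of 8.52, only 1 of them well above background, against 106 and 503 in ms23 siblings. All 6 ms32 mutant samples were well above background, from 74.9 to 304 with a median of 173, and the ms32 siblings had 109 and 45.3. The mutants of the 2 loci did not overlap. The direct log2 ratio was -1.21 (SE 0.0804, limma adjusted p = 0.00562), a call lost without replicate 2 (limma adjusted p = 0.0773). Because the probe passed the filter only through its ms32 signal and was well above background in 1 of the 4 ms23 mutant samples of slide 1, this ratio is given as a description.

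TC305423 and TC287963 were likewise low in ms23 mutants and high in the ms32 family. TC305423 ran from 16.6 to 102 in the 6 ms23 mutant samples (median 54.6), with 229 and 231 in ms23 siblings, from 902 to 2451 in the 6 ms32 mutant samples (median 1479) and 878 and 689 in ms32 siblings. Its direct log2 ratio was -2.79 (SE 0.164, limma adjusted p = 0.00438), a call lost in the deposited table (limma adjusted p = 0.184). On slide 2 the mean log2 level of TC305423 was 9.85 in the ms32 samples and 7.85 in ms23 siblings, so this ratio also goes with a difference between the families. TC287963 ran from 107 to 320 in ms23 mutants (median 183), with 1002 and 293 in ms23 siblings, from 1025 to 2859 in ms32 mutants (median 1982) and 1046 and 692 in ms32 siblings. The lower of its ms23 siblings was within the range of the ms23 mutants, and its direct log2 ratio was -2.20 (SE 0.127, limma adjusted p = 0.00423).

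**Figure D5:**
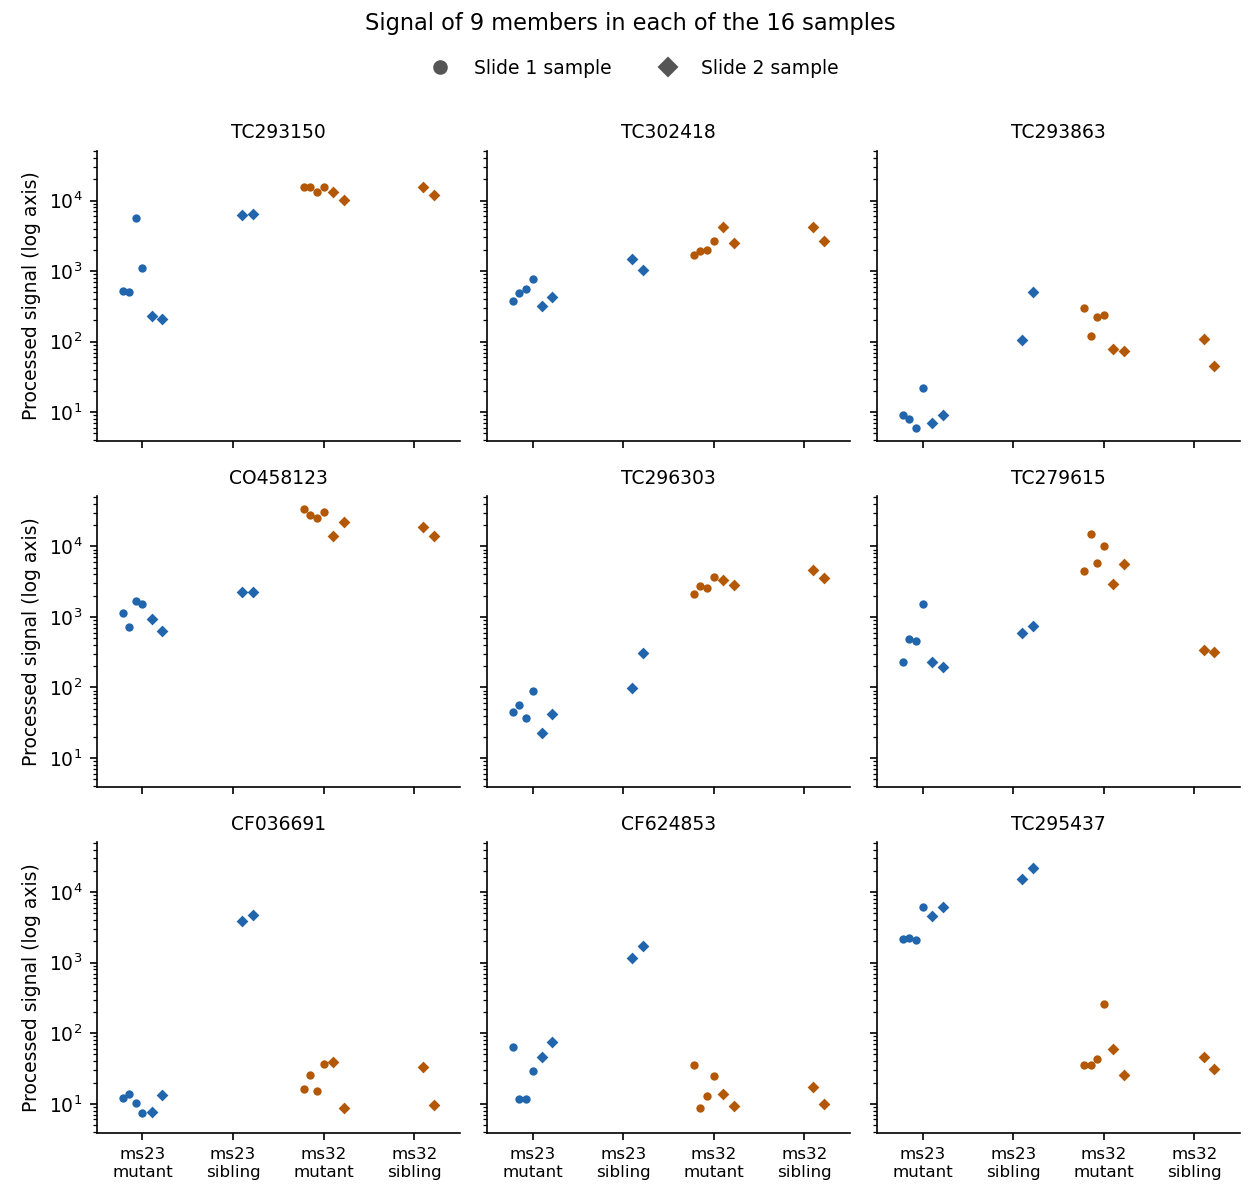
Processed signal (log axis) of 9 members in each of the 16 samples, grouped as ms23 mutant, ms23 fertile sibling, ms32 mutant and ms32 fertile sibling, with circles for slide 1 and diamonds for slide 2. The top row is low in ms23 mutants alone, the first 2 panels of the middle row and TC295437 show a wide gap between the families, TC279615 is high in ms32 mutants alone, and CF036691 and CF624853 are high in ms23 fertile siblings alone.

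For a second kind of called member, the ms32 family as a whole stood far above the ms23 family. The mean level of the ms32 samples exceeded that of the ms23 siblings by at least 2 on the log2 scale for 6 of the 35 members called lower, TC305423 among them. CO458123 had 1142, 716, 1652 and 1525 in ms23 mutants on slide 1 and 925 and 631 on slide 2, with 2266 and 2240 in ms23 siblings. In the ms32 family its mutants ran from 14184 to 33280 with a median of 26573 and its siblings had 18534 and 13934. Its direct log2 ratio of -4.34 (SE 0.221, limma adjusted p = 0.00339) was the lowest of all members, whereas its mean ratio to ms23 siblings was -1.56.

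TC296303 and CD953287 had the same shape. TC296303 ran from 23 to 89 in ms23 mutants (median 43.7), with 98.7 and 310 in ms23 siblings, from 2081 to 3645 in ms32 mutants (median 2757) and 4644 and 3528 in ms32 siblings. It fell by 3.62 on the log2 scale against ms32 mutants (SE 0.120, limma adjusted p = 0.00191). CD953287 ran from 3.67 to 139 in ms23 mutants (median 72.4), with 19.6 and 243 in ms23 siblings, from 2556 to 4248 in ms32 mutants (median 3261) and 3470 and 3879 in ms32 siblings. The ms23 mutants of slide 1 were within the range of the ms23 siblings for this probe, so that its direct log2 ratio of -3.53 (SE 0.177, limma adjusted p = 0.00335) goes with a family difference that is as wide between siblings; its call was lost in the deposited table (limma adjusted p = 0.132). TC283658 was alike, from 12 to 192 in ms23 mutants (median 23.7), with 33.6 and 34.3 in ms23 siblings, from 714 to 1382 in ms32 mutants (median 1146) and 520 and 271 in ms32 siblings. Its direct log2 ratio was -2.06 (SE 0.197, limma adjusted p = 0.0115), but 2 of its ms23 mutant samples on slide 1 were above both ms23 siblings. The call of TC283658 was lost without array 1 (limma adjusted p = 0.0548), without array 3 (0.0614) and in the deposited table (0.255).

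TC279615 differed from these in that it was high in ms32 mutants and not in their siblings. It had 226, 484, 454 and 1505 in ms23 mutants on slide 1 and 227 and 192 on slide 2, with 593 and 737 in ms23 siblings. The ms32 mutant samples ran from 2925 to 14748 with a median of 5771, against 334 and 313 in ms32 siblings. The direct log2 ratio was -3.41 (SE 0.332, limma adjusted p = 0.0119), and on slide 2 the ms32 mutant stood above its sibling by 3.13 and 4.19 on the log2 scale. This probe met the rule because the rule set no upper bound on the ms32 ratio, and 3 members were at 1 or higher on both ms32 arrays. The direct call was lost without array 1 (limma adjusted p = 0.0571), without array 3 (0.0592) and in the deposited table (0.0673).

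TC313692 was called at a direct log2 ratio of -1.92 (SE 0.240, adjusted p = 0.0196 in limma), a call lost without array 2 (limma adjusted p = 0.0773), without array 4 (0.0966) and in the deposited table (0.0807). It had 85.9, 99.1, 145 and 283 in ms23 mutants on slide 1 and 56.2 and 178 on slide 2, whereas its ms23 siblings differed widely, at 143 and 1494. The ms32 mutants ran from 656 to 2257 with a median of 1271, and the ms32 siblings had 1228 and 1913. A second probe with this target name, chosen for mention after its values were seen, was not well above background in either ms23 sibling. It had a direct log2 ratio of -3.44 (SE 0.157, limma adjusted p = 0.00291), with 7.59, 74.7, 68.4 and 188 in ms23 mutants and 2268, 2851, 1935 and 3378 in ms32 mutants on slide 1, and 1239 and 1320 in ms32 siblings.

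Some of the members whose signal fell furthest on slide 2 were high in the ms23 siblings alone. CF036691 had 3932 and 4779 in ms23 siblings and no more than 39.3 in any other sample, with 7.36 to 13.7 in the 6 ms23 mutant samples (median 11.2), 8.84 to 39.3 in the 6 ms32 mutant samples (median 20.8) and 33.7 and 9.49 in ms32 siblings. Its direct log2 ratio was -0.11 (limma adjusted p = 0.410), against 0.085 with median centring (limma adjusted p = 0.723), -1.06 on processed signals (0.0586) and -2.92 in the authors' deposited table (limma adjusted p = 0.00391). The probe passed the filter only through its ms32 signal and was well above background in 1 of the 4 ms23 mutant samples of slide 1, so the size of this ratio is not settled. CF624853 had 11.5 to 76.1 in ms23 mutants (median 37.8), 1162 and 1723 in ms23 siblings, 8.80 to 35.1 in ms32 mutants (median 13.3) and 17.2 and 10.04 in ms32 siblings. Its direct ratio was 0.06 (95% confidence interval -0.18 to 0.29, limma adjusted p = 0.714).

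TC310400, DR961171 and CO456591 followed this pattern at lower signal. TC310400 ran from 6.95 to 48.7 in ms23 mutants and from 8.42 to 65.9 in ms32 mutants, with 148 and 574 in ms23 siblings and 40.3 and 30.4 in ms32 siblings. DR961171 ran from 11.9 to 52.9 in ms23 mutants and from 11.3 to 130 in ms32 mutants, with 199 and 310 in ms23 siblings and 120 and 15.6 in ms32 siblings. CO456591 ran from 14.9 to 59.8 in ms23 mutants and from 20.3 to 61.1 in ms32 mutants, with 234 and 294 in ms23 siblings and 68.4 and 25.6 in ms32 siblings. In all 3 the ms23 siblings were the highest samples, and none was called between the mutants (limma adjusted p = 0.249, 0.991 and 0.583).

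TC297623 overlapped more. Its 6 ms23 mutant samples ran from 8.07 to 60.7 (median 28.4), its ms23 siblings had 328 and 67.5, its 6 ms32 mutant samples ran from 26.7 to 107 (median 58.3) and its ms32 siblings had 60.9 and 26.1. A single ms23 sibling stood apart, and the direct log2 ratio was -0.11 (95% confidence interval -0.31 to 0.09, limma adjusted p = 0.380). The 5 members nearest to 0 in the direct comparison were DR961171, TC314088, CD219117, TC301202 and CF034813, with direct log2 ratios of 0.002, -0.01, 0.01, -0.01 and 0.01. The mutant samples of TC314088 ran from only 5.83 to 23.8 and those of TC301202 from 9.48 to 56.1. At such signals the offset draws ratios to 0, so equal levels are not shown. On processed signals TC314088 was at -0.67, whereas the others ran from -0.16 to 0.04. For CF034813 the interval was wide, from -0.96 to 0.98, because its 4 arrays gave 1.11, -0.92, -0.42 and 0.28.

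TC286761 was not called although all but 1 of its ms32 samples stood far above the ms23 mutants. It had 7.26, 12.4, 15.8 and 10.8 in ms23 mutants on slide 1 and 8.57 and 5.13 on slide 2, against 331 and 329 in ms23 siblings. The ms32 mutant samples of slide 1 had 6.79, 1157, 2068 and 1520, those of slide 2 had 1840 and 1083, and the ms32 siblings had 1193 and 1141. The sample on array 1 of slide 1 was at the level of the ms23 mutants, and all other ms32 samples were far above it. The direct ratio was not called with all 4 arrays (limma adjusted p = 0.115) and was called lower without array 1 (limma adjusted p = 0.0163), without array 3 (0.0359), without replicate 1 (0.0250), with an offset of 10 (0.0328), on processed signals (0.0275), with median centring (0.0184) and in 1 model over all 8 arrays (0.0405). Because the probe passed the filter only through its ms32 signal and was well above background in 1 of the 4 ms23 mutant samples of slide 1, these calls are given as a description.

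For the 4 members called higher in ms23 than in ms32 mutants, the ms23 siblings were also above the ms32 siblings. TC295437 had 2153, 2247, 2119 and 6157 in ms23 mutants on slide 1 and 4621 and 6110 on slide 2, against 15316 and 22210 in ms23 siblings. Its ms32 mutants ran from 25.7 to 256 with a median of 39.8, and its ms32 siblings had 45.5 and 31.2. The ms23 mutants were thus below their siblings and far above every ms32 sample, with a direct log2 ratio of 3.53 (SE 0.169, limma adjusted p = 0.00317).

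CV071591 had 3962 to 7094 in ms23 mutants (median 4452), 8480 and 9753 in ms23 siblings, 1692 to 3193 in ms32 mutants (median 2541) and 2767 and 4362 in ms32 siblings, with a direct log2 ratio of 1.11 (limma adjusted p = 0.0323). TC314027 had 3498 to 5771 in ms23 mutants (median 4992), 14628 and 10290 in ms23 siblings, 2080 to 4107 in ms32 mutants (median 3507) and 4442 and 1528 in ms32 siblings, with a direct log2 ratio of 0.61 (limma adjusted p = 0.0195). TC287645 had 212 to 893 in ms23 mutants (median 351), 1142 and 1928 in ms23 siblings, 108 to 480 in ms32 mutants (median 237) and 631 and 192 in ms32 siblings, with a direct log2 ratio of 0.51 (limma adjusted p = 0.0367). In all 3 the ms23 siblings were the highest samples, but the higher ms32 sibling lay within the range of the ms23 mutants. None of the 3 calls held when any 1 of arrays 2, 3 or 4 was left out (limma adjusted p from 0.0564 to 0.168), without replicate 2, with median centring in place of loess, or in the deposited table. The calls of TC314027 and TC287645 were also lost without array 1, without replicate 1, on processed signals and with an intensity trend and robust variances (limma adjusted p = 0.0640 for TC314027 and 0.0855 for TC287645), and that of TC287645 with the dye-swapped pairs averaged (0.0771).

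Where a target had further probes, these did not always move with the member. There were 49 other probes for 16 targets, of which 36 belonged to the 3 genomic islands and 13 to 13 other targets. Of the 13, 6 were also at or below -1 on both ms23 arrays, and of the 36, 2 were. Of these 8 probes, 6 were kept out of the set by a ratio of -0.5 or lower on an ms32 array and 2 by a fertile sibling sample not well above background. On slide 1, 1 of the 49 was called lower, none higher, 44 were not called and 4 were not tested. Of all probes tested, 8.37% were called lower and 6.92% higher. Several of the 49 were near background, so their count is a description. The 2 member probes of TC313647 had ms23 ratios of -2.02 and -1.08 for the first and -1.41 and -1.26 for the second. Their direct log2 ratios were 0.82 (limma adjusted p = 0.0752) and 0.12 (limma adjusted p = 0.390), so that neither was called.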

How the data were processed

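RNA of 16 labelled samples of maize anthers was hybridised in pairs to 8 Agilent 2-colour arrays of design 016047, quantified with Feature Extraction 10.5.1.1, per the file headers. The deposited scanner files hold linear intensity values of spot and local background, a processed signal and marks of 0 or 1 for each spot. The authors also deposited a table of linear intensity values with column medians of 117.6 to 117.7; the submitters' processing notes name limma, and its centring and the origin of its 0 values are unknown here.

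Median intensities were corrected by normexp (offset 50) and loess within arrays, in R 4.3.3 with limma 3.58.1, without control or outlier spots. Slide 1 alone was fitted as ms23 over ms32 mutant with a dye term; residual degrees of freedom were 2. Tested probes were those well above background in 50% or more of the slide 1 samples of either mutant. The fit was tested on simulated data. The levels given are the scanner software's processed signals. Members were chosen, and lists and tests planned, with earlier results of these data known. Only 2 of 39173 target names matched the RefSeq table and no member did, so the planned gene lists were not applied and no sequence is shown. Members were named by a rule: the 10 lowest ms23 ratios, up to 10 called in each direction, the 5 nearest 0, those at the thresholds and targets with several member probes. Arrays with the same replicate numbers deviated by correlations of -0.488 and -0.284 from the mean ratio. Deviations from a mean of 4 arrays lean below 0 by construction, and dye effects were left in them. This check thus cannot show whether the numbers pair samples. The main fit took the 4 arrays as separate, and fits with the pairs averaged or as a block are given as alternatives. Array number limits the precision. Alternatives are described in the closing section.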

Additional observations from a re-analysis of the deposited data

Results flagged for a closer look

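In 4 of 58 groups of 6 mutant samples checked, the highest or lowest sample of a named member stood far from the 5 others; chance alone flags about 1 in 20 groups. TC286761 had its lowest ms32 mutant signal, 6.79, on array 1 of slide 1. TC293863 had its highest ms23 mutant signal, 22.1, on array 4 of slide 1. TC293150 had its lowest ms32 mutant signal, 10268, on array 2 of slide 2. TC295437 had its highest ms32 mutant signal, 256, on array 4 of slide 1.

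For 7 named probes both ms23 arrays lay below 0 and both ms32 arrays above 0, a difference between the families that was not tested and whose ms23 direction is fixed by the rule. The mean ms23 ratio minus the mean ms32 ratio was -5.32 on the log2 scale for TC279615, -4.05 for TC297623, -3.32 for TC305423, -2.83 for TC287963, -2.69 for TC283658, and -1.78 and -1.60 for the 2 probes of TC313647.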

How the results depend on the processing

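The median direct ratio over members was below 0 in every fit: -0.34 with a normexp offset of 10, -0.67 on processed signals, -0.53 in the deposited table (log2 with a pseudocount of 1), -0.32 to -0.13 with 1 array left out and -0.31 and -0.095 without replicate 1 or 2, beside -0.23. Members called lower numbered 12 in the deposited table, beside 3.28% of all probes, and 45 members are listed there at 0 in some slide 1 sample. Those called lower numbered 14 to 21 with 1 array left out and 26 and 12 without replicate 1 or 2. Members called higher numbered 7 with offset 10, 2 each with median centring, the deposited table, and an intensity trend with robust variances, 9 in 1 model over all 8 arrays, 1 and 2 without array 3 or 4, and 1 without replicate 2. All probes called numbered 6017, against 2242 in the deposited table, 3753 with trend and robust variances, 1787 to 2880 with 1 array left out, and 3618 and 1308 without replicate 1 or 2. The share of all probes called higher was 6.92% in the main fit and is not given for the other fits. The counts of members called higher in those fits are thus a description. Fewer arrays enter the left-out fits, and other causes were not tested. With a replicate block as a random effect (correlation 0.0199) 33 members were lower and 4 higher, beside 8.12% of all probes lower, and no named member changed its call.

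Other rules held 22 probes (8 lower) at a 4-fold fall, 77 (19) above -0.25 in ms32, 80 (20) between -0.5 and 0.5, and 66 (15) on loess ratios. The median ms23 ratio to siblings was -1.66 on processed signals, -1.04 after loess, -1.29 with offset 10, -0.78 with median centring, -1.48 in the deposited table and -1.64 and -1.60 on array 3 or 4 alone. Of 513 alternative values of named members, 431 kept direction and call, 45 lost a call, 12 gained one and 25 changed sign. Of the sign changes, in 9 members near 0, 24 were called in neither fit and 1 was called: DR961171, at -2.82 in the deposited table (limma adjusted p = 0.00391). The others were -0.019 (DR961171) and -0.010 (CF034813) with offset 10, -0.059 (CF034813) and -0.035 (CD219117) on processed signals, and with median centring -0.26 (CF034813), 0.085 (CF036691), 0.0047 (TC297623), 0.041 (CO456591), 0.22 (TC314088) and 0.15 (TC301202). With an array or replicate left out the ratio ran from -0.038 to 0.042 for DR961171, -0.37 to 0.39 for CF034813, -0.041 to 0.059 for CD219117, -0.064 to 0.049 for TC314088, -0.039 to 0.019 for TC301202 and -0.036 to 0.15 for CF624853. Signal near background limits dim members, whose ratios shrink with the offset.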
